A study of Mus musculus with 7 samples.

Results

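The 9 genes described here, Mbp, Mobp, Cnp, Mal, Cldn11, Mog, Mag, Opalin and Ermn, encode structural proteins of central nervous system myelin. They were chosen by symbol as genes of the myelin sheath, with no threshold on their counts but with earlier results of these data known, and are 9 of the 32285 genes in the feature lists of every library. Their UMI counts (unique molecular identifiers, each standing for 1 captured RNA molecule) were followed through the oligodendrocyte lineage of the mouse ventricular-subventricular zone and compared between genotypes.

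Single cells were prepared from the lateral ventricular walls of mice at postnatal days 31 to 33, with 2 to 3 animals of both sexes pooled in each library. The 3 control libraries came from Prdm16 flox/flox mice with no Cre. The 3 Prdm16 cKO libraries came from hGFAP-Cre; Prdm16 flox/flox mice, and 1 DKO library came from hGFAP-Cre mice with floxed alleles of both Prdm16 and Vcam1, so that all groups carried the floxed Prdm16 alleles. hGFAP-Cre is active in radial glia before birth and in astrocytes, and myelin debris was removed from the suspension on a density gradient.

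Oligodendrocytes wrap axons in a sheath of compacted membrane. They arise from dividing precursors (OPCs), which pass through a short-lived committed stage before they mature and make myelin. Some sheath proteins hold the compacted membrane layers together, others line the surface that faces the axon or the outside, and others build the junctions and transport routes that supply the sheath.

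Cells were placed in a class when they held at least 1 UMI of 3 or more genes of a marker panel, and none of the 9 genes was in a panel. Of 43346 cells that passed the filters, 650 were classed as OPC, 523 as committed and 3988 as mature, and 23876 fell in 7 classes outside the lineage (astrocyte/NSC, ependymal, neuroblast, neuron, endothelial, mural and microglia). A library held 122 to 927 mature cells, 26 to 137 committed cells and 35 to 134 OPCs, and the remaining cells passed no panel or were dropped as mixed. A cell that passed the committed panel and 1 other lineage panel was given the stage with more panel genes present, with ties to committed. A cell that passed all 3 lineage panels was kept as committed only where no other panel had more genes, and cells that passed the OPC and mature panels alone, or panels of different cell types, were dropped. Sox10, Olig1 and Olig2, transcription factors of the lineage that were in no panel, set the 3 lineage classes apart from the other classes. They were present in all 3 stages, so they bear on the lineage and not on the stage names. Sox10 lay between 215 and 681 CPM (the gene's share of all UMIs of the class, on the usual CPM scale) in every lineage class and library, and reached at most 18.7 CPM in any other class. Libraries held 45758003 to 141353017 UMIs, and every pair of libraries of a group differed far beyond counting noise. At most 1.48% of the barcodes of the smaller library of a pair were shared.

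The targeted genes were read first. Prdm16, which encodes a chromatin regulator, was at 0 to 4.38 CPM in the 3 lineage classes in all 7 libraries, the controls included. In astrocyte/NSC cells it stood at 62.2, 52.6 and 59.3 CPM in the controls and at 48.4, 57.4 and 47.7 CPM in the cKO libraries, which overlap, and tags from the 3′ end of a Prdm16 transcript do not show whether an internal exon was lost. Vcam1, which encodes a cell adhesion molecule, was at 91.9, 83.0 and 84.3 CPM in control OPCs, 76.1, 35.4 and 49.2 CPM in cKO OPCs and 39.9 CPM in DKO OPCs. In astrocyte/NSC cells Vcam1 was at 199, 171 and 158 CPM in the controls, 198, 223 and 211 CPM in the cKO libraries and 110 CPM in the DKO library (exact Poisson 95% interval 104 to 117, counting error only), so the 1 DKO library was below all 6 others.

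The 9 genes took 3.84% to 4.75% of all UMIs of mature cells, 2.21% to 3.04% of those of committed cells and 0.0509% to 0.155% of those of OPCs. The log2 step from OPC to committed cells was larger than that from committed to mature cells for 7 of the 9 genes, and smaller for Ermn and Mal. In CPM, Mbp and Mag stood in committed cells at or above their mature level in every library and Cnp close to it. Cldn11 and Mobp were somewhat below it, Opalin and Mog further below, and Ermn and Mal were at a small part of it.

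**Figure D1:**
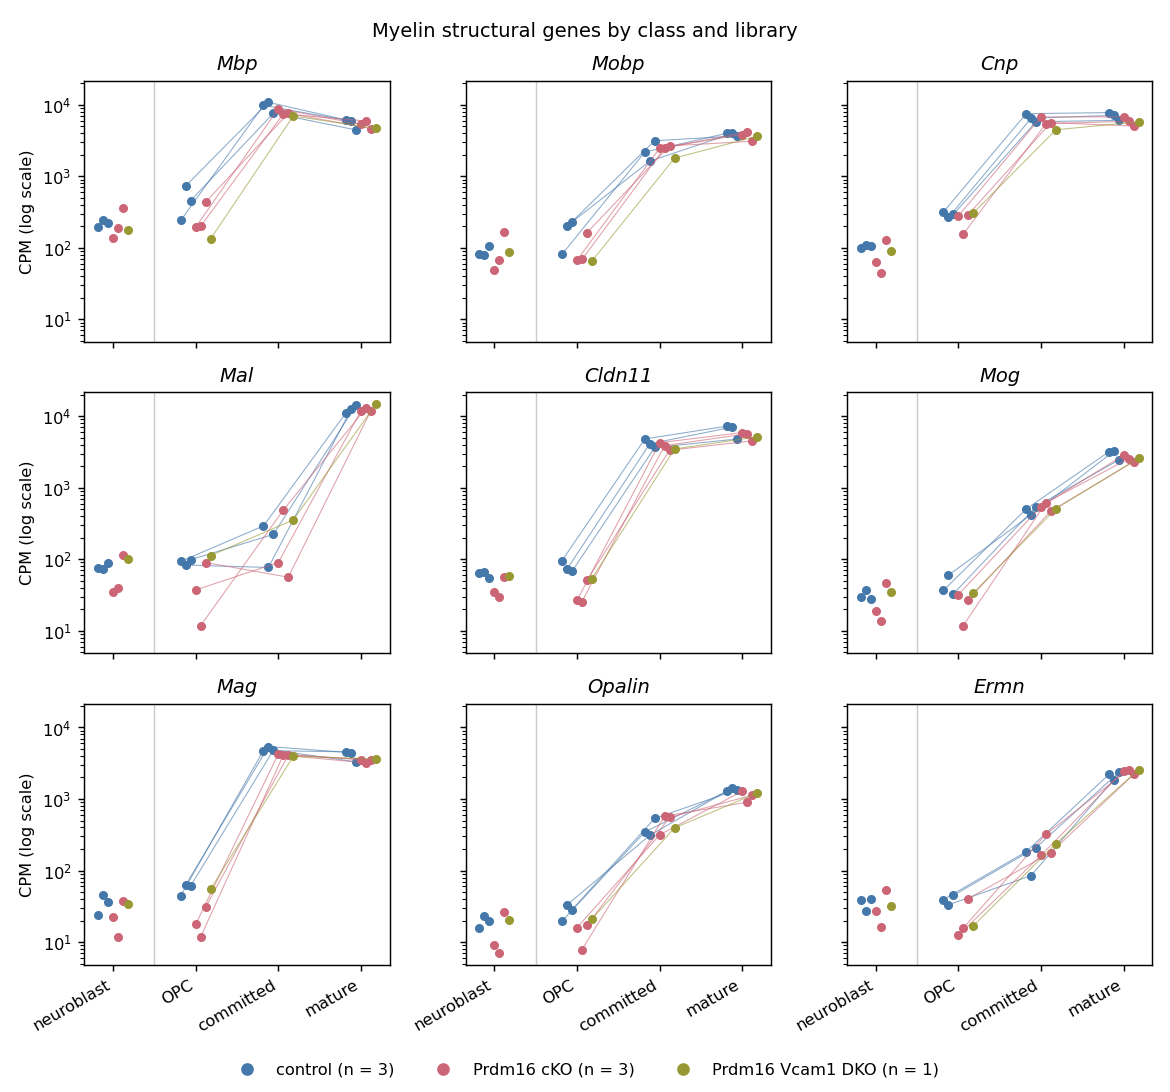
Level of each of the 9 genes in neuroblasts (left of the grey line, a class outside the lineage) and in OPC, committed and mature cells, in CPM on a log scale. Each point is 1 library, lines join the classes of a library, and colours mark the genotype. Mal stays between 56.1 and 486 CPM in committed cells and lies between 11193 and 14639 CPM in mature cells, whereas Mag is at or above its mature level in the committed cells of every library.

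Compact myelin is held together by myelin basic protein, encoded by Mbp. In committed cells Mbp was at 9796, 10818 and 7599 CPM in the controls, 8817, 7443 and 7611 CPM in the cKO libraries and 6937 CPM in the DKO library. In mature cells of the same libraries it was at 6081, 5902 and 4450 CPM in the controls, 5320, 5929 and 4643 CPM in the cKO libraries and 4689 CPM in the DKO library. Every library was thus lower in its mature than in its committed cells by this measure.

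The stages were compared in edgeR's quasi-likelihood test with the library as a block over 11857 genes, with Benjamini-Hochberg adjustment over all of them and TMM scaling, which corrects for a few very abundant genes taking up the total. A log2 fold change is on that scale unless said otherwise. Without the TMM factors the median log2 fold change of all genes between mature and committed cells was -0.28 in place of 0.05, so a gene at equal CPM counts as somewhat higher in mature cells under TMM. The share of called genes that were higher in mature cells was 53.5% under TMM and 29.8% without it, and that for committed against OPC was 46.3% and 24.7%.

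Of the 9 genes, 7 were called higher in mature than in committed cells, against 33.7% of all genes tested called higher and 29.3% called lower. The mature class was gated on other marker genes of mature oligodendrocytes, so higher levels there were likely beforehand. Mal led with a log2 fold change of 6.37 ± 0.46 (SE, adjusted p = 4.36e-08), followed by Ermn at 3.93 ± 0.19 and Mog at 2.72 ± 0.11. Opalin differed by 1.85 ± 0.16, Mobp by 1.05 ± 0.22 and Cldn11 by 0.87 ± 0.11. These 6 genes were called higher under every alternative tried, scaling by totals included.

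For Cnp, Mag and Mbp the direction or the call changed with the scaling. Cnp was called higher in mature cells under TMM, at 0.41 ± 0.10 (adjusted p = 0.000724), but not when libraries were scaled by their totals (0.07 ± 0.10, adjusted p = 0.516). Mag was not called under either, with 0.06 ± 0.12 under TMM (adjusted p = 0.687) and -0.27 ± 0.12 with totals (adjusted p = 0.060). Mbp, at -0.33 ± 0.23 (adjusted p = 0.242), was called lower in mature cells with totals (-0.66 ± 0.23, adjusted p = 0.0241). Under TMM, Mbp was also called lower with no filter on low counts (-0.32, adjusted p = 0.00023) and with 4 panel genes required (-0.45, adjusted p = 0.0155).

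Between OPC and committed cells all 9 genes were called higher in committed cells, against 30.5% of all genes called higher and 35.3% called lower. The classes were gated on other stage markers of the same lineage, so a higher level in the later class was likely beforehand. Mag, the myelin-associated glycoprotein of the membrane next to the axon, differed most, by 7.17 ± 0.18 on the log2 scale (adjusted p = 1.56e-19). Cldn11, the claudin that forms the tight junctions between sheath layers, followed at 6.50 ± 0.15 and Mbp at 5.12 ± 0.28. Cnp, the 2′,3′-cyclic nucleotide phosphodiesterase of non-compacted myelin, differed by 4.83 ± 0.12, Opalin by 4.81 ± 0.24, Mobp by 4.67 ± 0.27 and Mog by 4.39 ± 0.15. Ermn, which encodes the cytoskeletal protein ermin, differed by 3.11 ± 0.25 and Mal by 1.79 ± 0.47 (adjusted p = 0.00463). The size of these folds is limited by the OPC level, which for most of the genes was close to that of cells outside the lineage, as given further on.

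The genes were ordered by how near to their mature level they stood in the summed committed class. This was read within each gene, as its CPM in committed cells in percent of its CPM in the mature cells of the same library. Transcript length therefore does not enter. Mbp stood at a median of 164% over the 7 libraries (range 126% to 183%), Mag at 121% (105% to 146%) and Cnp at 95.6% (77.3% to 111%). The ranges of these neighbours over the libraries overlapped, although Mag stood above Cnp within each of the 7 libraries. That holds for the summed class. In its cells with few genes of the mature panel, given further on, Cnp stood nearer its mature level than Mag. Cldn11 followed at 68.1% (58.4% to 76.3%) and Mobp, the myelin-associated oligodendrocyte basic protein of compact myelin, at 59.9% (41.0% to 86.3%). The range of Cnp lay wholly above that of Cldn11, while Cldn11 and Mobp overlapped.

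Opalin, an oligodendrocyte transmembrane glycoprotein gene, stood at 32.6% (21.8% to 63.7%) and Mog, the outer-surface myelin oligodendrocyte glycoprotein, at 19.7% (13.0% to 24.3%), and these overlapped as well. Ermn stood at 8.31% (4.55% to 12.4%), below the whole range of Mog. Mal, which encodes a small proteolipid of membrane sorting, was last at 1.56% (0.469% to 3.76%), below the whole range of Ermn. Cnp was 3rd, Mog 7th, Ermn 8th and Mal 9th in every one of the 7 libraries. The control and cKO ranges of this percentage overlapped for all 9 genes.

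Between these ends, Cldn11 in committed cells was at 4793, 4106 and 3650 CPM in the controls, 4247, 3869 and 3333 CPM in the cKO libraries and 3474 CPM in the DKO library. Mobp was at 2183, 1626 and 3139 CPM in the controls, 2470, 2489 and 2664 CPM in the cKO libraries and 1796 CPM in the DKO library. Control libraries 2 and 3 were the lowest and the highest for Mobp, so the spread within the controls covered all other libraries. Opalin was at 346, 311 and 537 CPM in the controls, 316, 576 and 554 CPM in the cKO libraries and 395 CPM in the DKO library. Mog was at 502, 419 and 545 CPM in the controls, 545, 618 and 472 CPM in the cKO libraries and 508 CPM in the DKO library. For both genes the genotypes overlapped, with cKO library 2 the highest.

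The mix of the 9 transcripts shifted accordingly. Mal made up 23.5% to 33.4% of their summed UMIs in mature cells and 0.228% to 1.92% in committed cells. Mbp made up 10.4% to 13.5% in mature cells and 28.7% to 36.9% in committed cells. For both genes the ranges over the 7 libraries did not overlap.

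The levels behind the bottom of the order show how far apart the classes were. Mal in mature cells was at 11193, 12479 and 14231 CPM in the controls, 11967, 12944 and 11965 CPM in the cKO libraries and 14639 CPM in the DKO library. In committed cells it was at 291, 76.7 and 222 CPM in the controls, 89.8, 486 and 56.1 CPM in the cKO libraries and 354 CPM in the DKO library (exact Poisson 95% interval 325 to 384, counting error only). The committed values spread over almost an order of magnitude among libraries of one genotype, and none came near a mature value.

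Ermn in mature cells was at 2203, 1872 and 2356 CPM in the controls, 2483, 2585 and 2203 CPM in the cKO libraries and 2570 CPM in the DKO library. In committed cells it was at 183, 85.2 and 210 CPM in the controls, 163, 321 and 179 CPM in the cKO libraries and 237 CPM in the DKO library. As for Mal, the highest committed value came from cKO library 2 and control library 2 was among the lowest 2.

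At the top of the order, Mag in committed cells was at 4766, 5405 and 4830 CPM in the controls, 4281, 4102 and 4137 CPM in the cKO libraries and 3945 CPM in the DKO library. In mature cells it was at 4559, 4450 and 3313 CPM in the controls, 3551, 3197 and 3524 CPM in the cKO libraries and 3646 CPM in the DKO library. In CPM, no library had more Mag in its mature than in its committed cells. This order depends on the scaling, since under TMM Mag was not called between the stages and its estimate was slightly above 0. In committed cells the 3 cKO libraries lay below the 3 controls, as for 6.14% of all genes tested, and in mature cells the genotypes overlapped.

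The committed class was itself not uniform. Of its 523 cells, 333 held at least 3 genes of the mature panel and 190 held 0 to 2, and the class boundary used those panel genes but none of the 9. Cells with fewer mature-panel genes were also shallower, at a mean of 4486 to 19026 UMIs per cell and library against 19944 to 33553 in the others, and depth bears on how many panel genes are seen. In cells with 3 or more, Mag was a median of 14.4 times higher (at least 8.38 in each library), on 7 to 191 UMIs per library in the cells with fewer. Its highest fold, 107, came from cKO library 2 with those 7 UMIs. Cldn11 was higher by a median of 7.43 times (4.54 to 14.6), Mbp 3.72 times (2.40 to 7.95) and Cnp 2.75 times (1.92 to 5.20), each in 7 of 7 libraries. Mbp and Cnp were already at a median of 2230 and 2201 CPM in the cells with fewer mature-panel genes. Mag was at a median of 422 CPM there (46.0 to 665), against 3197 to 4559 CPM in mature cells. Cnp was at 1382 to 3782 CPM there, against 5035 to 7767 CPM in mature cells. In these cells Cnp was thus nearer its mature level than Mag in each library, the reverse of the summed class. Opalin had only 1 to 14 UMIs per library in those cells and 218 to 1056 UMIs in the others, and Mobp had 2 to 121 and 1143 to 6139 UMIs, so no fold is given for them. Mal was at a median of 70.3 CPM (4 to 88 UMIs) in the cells with fewer mature-panel genes and 239 CPM in the others, higher in 6 of 7 libraries, and was far below its mature level in both.

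The share of cells with a transcript was compared after thinning each cell to 2000 UMIs, with shallower cells left out. A Cnp UMI was found in a median of 96.0% of committed cells (96.8% before thinning), against 19.9% of neuroblasts, which should lack these genes. For Mag the thinned shares were 68.2% of committed cells (79.3% before) and 7.63% of neuroblasts. For Mal they were 16.0% of committed cells (61.5% before) and 15.6% of neuroblasts. Thinned shares for Mal by library were 7.32% to 36.2% in committed cells and 8.39% to 21.1% in neuroblasts, with DKO committed cells highest at 36.2% against 19.7% of DKO neuroblasts. In CPM, committed cells were above neuroblasts for Mal in 6 of 7 libraries and below in cKO library 3. Median depth per library was 9306 to 27975 UMIs in committed cells and 4924 to 10130 in neuroblasts. Mature cells held a Mal UMI in a median of 98.7% after thinning.

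In the GENCODE vM21 annotation of GRCm38, Cnp lies at chr11:100574904-100591729 on the plus strand and overlaps Dnajc7 on the other strand. Ermn lies at chr2:58045113-58052864 on the minus strand and overlaps Galnt5 on the other strand. None of the 9 genes overlaps another gene on its own strand.

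Promoter sequence is shown for genes at both ends of this order. For 8 of the 9 genes a promoter (250 bases before to 50 after an annotated start) was present in the RefSeq set for GRCm38.p6. Each was searched on both strands for CTGGCAC, a core of sites bound by the myelin regulator Myrf, ACAAAG, a core of Sox sites, and CAGCTG, an E-box. The Myrf core was found in at least 1 promoter of Cnp, Mag and Opalin, 3 of 8 genes, against 5.73% of the 27025 genes in the set and 5.01% of its 32851 promoters. The Sox core was found in 4 of 8 (Cnp, Mag, Mobp and Opalin), against 21.0% of genes and 18.7% of promoters, and the E-box in 1 of 8 (Opalin), against 18.3% and 16.3%. Mag has 3 promoters in the set, of which 2 overlap and share the matches and the third (chr7:30914272-30914571) holds none of the motifs. No match was found in the promoters of Cldn11, Ermn, Mal and Mog, which says only that these letters are not in those windows.

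The 4 promoters below are those of Cnp (chr11:100574689-100574988, plus strand), Mag (chr7:30914814-30915113, minus strand, 1 of 3 annotated starts), Opalin (chr19:41077064-41077363, minus strand) and Mal (chr2:127656646-127656945, minus strand), all GRCm38.p6 from RefSeq and written from 5′ to 3′ on the strand of the gene. They are shown because Cnp and Mag stood near or above their mature level in the summed committed class, Opalin held all 3 motifs, and Mal was last. Capitals mark the 3 motifs on either strand.
Cnp: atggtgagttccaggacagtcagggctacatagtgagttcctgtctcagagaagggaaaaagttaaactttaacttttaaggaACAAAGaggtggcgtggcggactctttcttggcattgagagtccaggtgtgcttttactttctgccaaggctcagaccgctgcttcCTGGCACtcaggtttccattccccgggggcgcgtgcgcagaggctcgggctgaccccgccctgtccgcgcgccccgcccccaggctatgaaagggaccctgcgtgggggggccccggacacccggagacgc
Mag: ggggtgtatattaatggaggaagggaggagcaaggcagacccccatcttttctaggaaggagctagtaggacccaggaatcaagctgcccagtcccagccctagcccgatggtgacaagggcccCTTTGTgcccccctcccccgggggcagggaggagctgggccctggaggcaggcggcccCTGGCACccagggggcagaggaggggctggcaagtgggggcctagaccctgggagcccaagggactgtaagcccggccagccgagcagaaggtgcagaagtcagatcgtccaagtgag
Opalin: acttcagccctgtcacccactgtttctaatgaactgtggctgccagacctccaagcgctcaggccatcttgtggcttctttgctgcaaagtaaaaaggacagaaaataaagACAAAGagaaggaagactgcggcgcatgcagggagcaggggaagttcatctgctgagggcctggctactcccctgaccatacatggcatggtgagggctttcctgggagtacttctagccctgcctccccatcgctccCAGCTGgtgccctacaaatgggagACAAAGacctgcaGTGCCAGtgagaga
Mal: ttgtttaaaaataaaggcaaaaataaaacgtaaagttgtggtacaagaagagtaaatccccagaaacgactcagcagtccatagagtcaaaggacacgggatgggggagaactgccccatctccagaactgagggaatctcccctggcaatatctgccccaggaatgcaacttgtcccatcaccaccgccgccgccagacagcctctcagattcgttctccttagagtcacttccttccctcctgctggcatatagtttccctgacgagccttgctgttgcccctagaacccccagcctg
The capitals describe the letters, and no binding was measured.

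Cells outside the lineage held the 9 transcripts too, at a low level in every class and library. These counts were treated as background from free RNA, and they set the level below which OPC values cannot be interpreted. In neuroblasts the 9 genes together reached 398 to 988 CPM, in neurons 295 to 762 CPM and in astrocyte/NSC cells 531 to 919 CPM. The sums in OPCs, 970, 1546 and 1318 CPM in the controls, 682, 509 and 1145 CPM in the cKO libraries and 797 CPM in the DKO library, lay within the range of the classes outside the lineage but above the neuroblasts of the same library in all 7 libraries. The neuroblast sums were 626, 707 and 702 CPM in the controls, 398, 417 and 988 CPM in the cKO libraries and 637 CPM in the DKO library. Ependymal cells, whose median depth of 1120 to 1526 UMIs was the lowest of the classes, reached 661 to 3164 CPM.

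**Figure D2:**
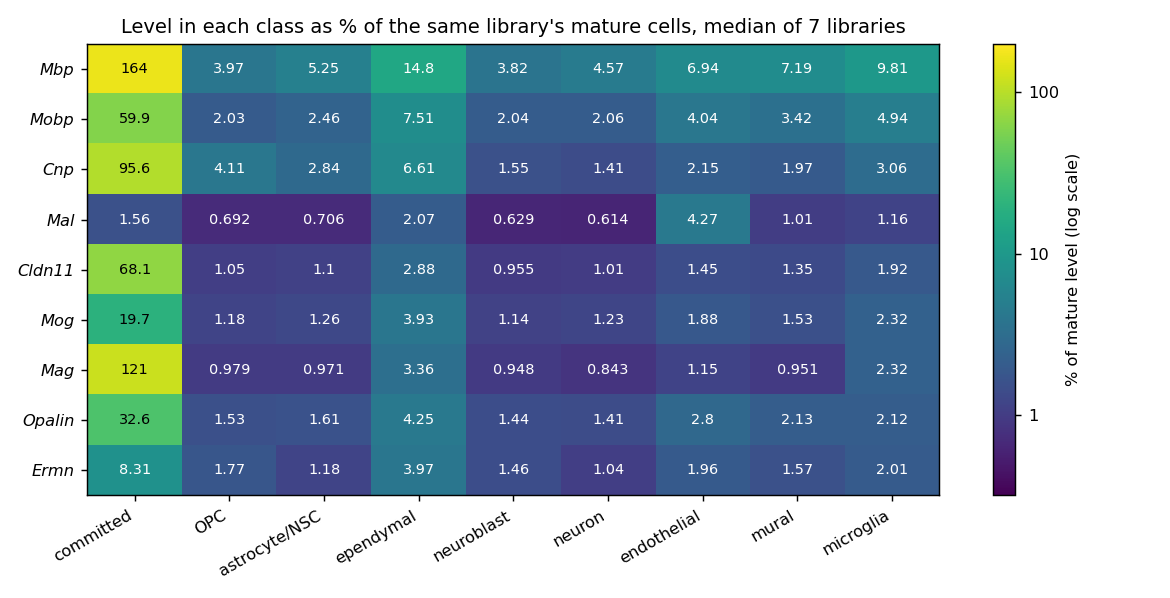
Level of each gene (rows) in each class (columns) in percent of its level in mature cells of the same library, median of 7 libraries, with colour on a log scale. Cldn11, Mog and Mag lie between 0.843% and 3.93% in OPC and all classes outside the lineage. Cnp is at 4.11% in OPCs and 6.61% in ependymal cells, and Mal is at 4.27% in endothelial cells and at most 2.07% in the other classes outside the lineage.

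Among OPCs only Cnp stood above the neuroblast level of the same library by more than 2-fold in every library. It was at 318, 265 and 293 CPM in control OPCs, 278, 155 and 292 CPM in cKO OPCs and 306 CPM in DKO OPCs (exact Poisson 95% interval 272 to 343). In neuroblasts of the same libraries it was at 101, 110 and 105 CPM in the controls, 62.5, 44.0 and 128 CPM in the cKO libraries and 89.7 CPM in the DKO library. The 2 classes did not overlap, and the OPC level was 2.27 to 4.45 times the neuroblast level. Cnp was also at 92.8 to 220 CPM in astrocyte/NSC cells and 278 to 616 CPM in ependymal cells. In no library was the OPC level above that of every class outside the lineage.

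The other genes gave no such separation. Mbp in OPCs was at 242, 733 and 459 CPM in the controls, 195, 201 and 435 CPM in the cKO libraries and 133 CPM in the DKO library (exact Poisson 95% interval 111 to 159). Control library 2 was the highest for Mbp and also held only 41 OPCs. OPC exceeded neuroblast CPM in 6 of 7 libraries for Mbp and Opalin, in 5 for Mal, in 4 for Mobp, Mog and Mag, and in 3 for Cldn11 and Ermn. The ratio of Cnp to Mog was 4.44 to 13.2 in OPCs and 2.61 to 3.80 in neuroblasts, so the 2 ranges did not overlap. The OPC ratios rest on only 6 to 32 Mog UMIs in a library.

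Mal was unlike the other 8 genes in endothelial cells. In endothelial cells it was at 563, 532 and 554 CPM in the controls, 509, 684 and 493 CPM in the cKO libraries and 787 CPM in the DKO library. In neuroblasts it was at 74.9, 72.1 and 89.5 CPM in the controls, 34.9, 39.2 and 115 CPM in the cKO libraries and 101 CPM in the DKO library. The endothelial level was 4.29 to 17.4 times the neuroblast level and was the highest of the 7 classes in 6 of 7 libraries. In control library 1 ependymal cells, at 584 CPM, were slightly higher.

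**Figure D3:**
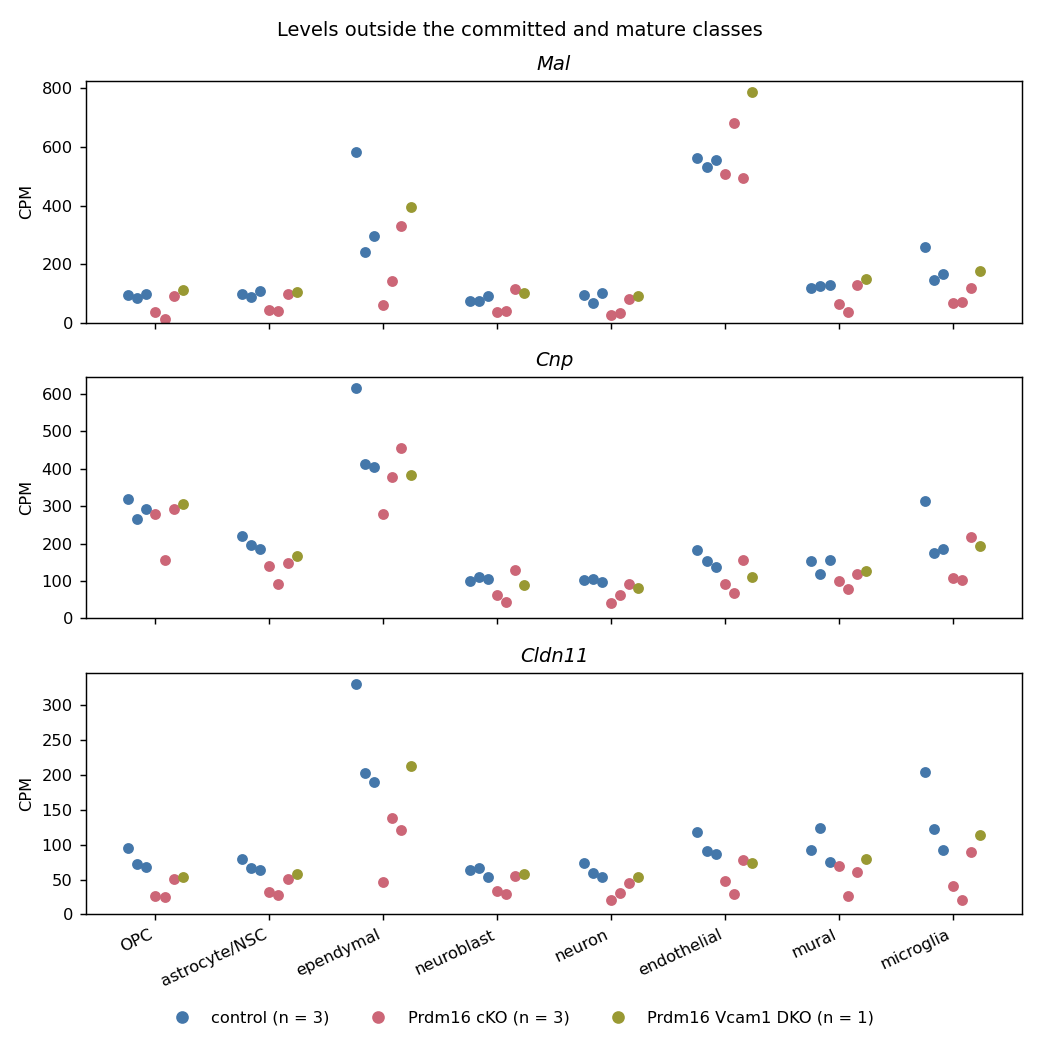
Levels of Mal, Cnp and Cldn11 in OPCs and the 7 classes outside the lineage, in CPM on a linear axis. Each point is 1 library and colours mark the genotype. Endothelial Mal lies between 493 and 787 CPM in all libraries, and Cldn11 of the cKO libraries lies below that of the controls in OPCs and in 6 of the 7 other classes.

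The pattern of the other genes did not follow Mal into endothelial cells. The ratio of Mal to Mbp was 0.732 to 3.11 in endothelial cells and 0.209 to 0.562 in neuroblasts, while Cldn11 reached 28.9 to 119 CPM and Mag 21.0 to 64.6 CPM in endothelial cells, close to other classes. A Mal UMI was found in a median of 75.1% of endothelial cells (58.4% after thinning to 2000 UMIs), against 49.8% of neuroblasts (15.6% after thinning). Median depth was 2532 to 4930 UMIs in endothelial cells and 4924 to 10130 in neuroblasts, and thinning left out 598 of 2080 endothelial cells and 742 of 9918 neuroblasts. The 2 genotypes overlapped in endothelial Mal, and the pattern was noticed in these data and has no test.

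Background and mature cells also differed in which of the genes led. The ratio of Mbp to Mog was 1.82 to 2.33 in mature cells, 12.05 to 25.8 in committed cells and 5.21 to 13.6 in neuroblasts, where it lay above the mature range in all 7 libraries. The ratio of Mal to Mbp was 1.84 to 3.20 in mature cells. The background therefore did not hold the genes in the proportions of the mature cells in the same library, and the reason was not tested.

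The remaining question was whether Prdm16 cKO and control cells of the same class differed. Each class was tested on UMIs summed per library, with 3 cKO against 3 control libraries, in edgeR's quasi-likelihood test with adjustment over all genes. The labels give only a group and a replicate number. The study's methods state that 2 to 3 mice were pooled per replicate, while its results speak of 3 cKO and 3 control mice. The p-values therefore measure the spread between libraries.

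In mature cells none of the 9 genes was called, and none of 13520 genes was (0.0% of those tested, with 335 at an unadjusted p under 0.05, and 4 called by DESeq2, none of them among the 9). The log2 fold changes ran from -0.23 ± 0.16 for Opalin to 0.24 ± 0.16 for Ermn, with a median of -0.13, and 3 of the 9 were above 0. Leaving out 1 library moved the median to -0.063 (without cKO library 3) or -0.20 (without control library 3), with 1 to 4 of the 9 above 0. Opalin was at 1298, 1429 and 1353 CPM in the controls and 1288, 904 and 1130 CPM in the cKO libraries, which did not overlap, as was the case in that direction for 5.24% of all genes tested. The DKO library lay within the range of the other 6 libraries for 8 of the 9 genes and above it for Mal.

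Cnp in mature cells was at 7767, 7101 and 6053 CPM in the controls, 6767, 5871 and 5035 CPM in the cKO libraries and 5777 CPM in the DKO library. Cldn11 was at 7258, 7028 and 4785 CPM in the controls, 5898, 5682 and 4510 CPM in the cKO libraries and 5122 CPM in the DKO library. For both genes the genotypes overlapped, and control library 3 lay among the cKO libraries. Mobp, at 4009, 3965 and 3662 CPM in the controls and 3836, 4158 and 3085 CPM in the cKO libraries, overlapped too. Mog did likewise, at 3163, 3217 and 2431 CPM in the controls and 2856, 2541 and 2304 CPM in the cKO libraries.

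In committed cells none of the 9 genes was called, and none of 10611 genes was (0.0%, with 358 at an unadjusted p under 0.05 and 0 called by DESeq2). The log2 fold changes ran from -0.20 ± 0.18 for Mag to 0.48 ± 0.40 for Ermn, with a median of 0.09 whose sign changed under several alternatives. Mag did not overlap between the genotypes, with every cKO library below every control library as for 6.14% of all genes tested. The estimate for Mal was 0.09 ± 1.06, with a standard error that leaves a large difference in either direction within reach. The DKO library lay within the range of the other 6 libraries for 6 of the 9 genes and below it for 3.

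**Figure D4:**
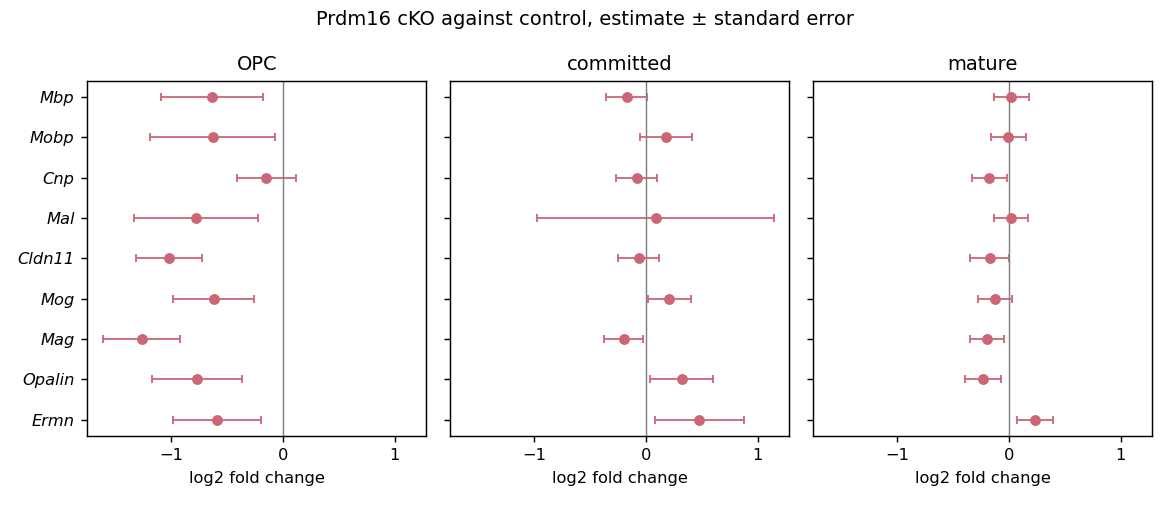
Log2 fold change of each gene in Prdm16 cKO against control libraries in OPC, committed and mature cells, with points for the estimate and bars for ± 1 standard error (3 against 3 libraries). All 9 estimates in OPCs lie below 0, from -1.27 for Mag to -0.15 for Cnp, and none was called. Cnp turned above 0 without cKO library 2 (0.07) and in cells with a Pdgfra UMI (0.05), and Mobp with 2 panel genes required (0.12).

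In OPCs the 9 genes were lower in cKO libraries by their estimates, at a median log2 fold change of -0.64, and none was called. Of 10907 genes tested, 3 were called (0.0275%, with 643 at an unadjusted p under 0.05) and all 3 were higher in cKO. They were Prm1, Nhlh1 and Neurod4, named here after their values were seen. DESeq2 called 21 genes, and edgeR called 105 without cKO library 1, with none of the 9 genes among either. The lowest estimates were those of Mag, at -1.27 ± 0.35 (unadjusted p = 0.00189 and adjusted p = 0.481 in edgeR's test), and Cldn11, at -1.02 ± 0.29 (unadjusted p = 0.00284 and adjusted p = 0.596). The median of all genes was -0.00391, and without TMM factors it was -0.13 with the 9 genes at a median of -0.77.

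Mag in OPCs was at 44.6, 63.0 and 61.3 CPM in the controls, 17.7, 11.8 and 30.8 CPM in the cKO libraries and 54.7 CPM in the DKO library (exact Poisson 95% interval 40.8 to 71.7). Cldn11 was at 95.9, 73.0 and 67.9 CPM in the controls, 26.6, 25.6 and 50.5 CPM in the cKO libraries and 53.6 CPM in the DKO library (39.9 to 70.5). For both genes the highest cKO library lay below the lowest control, which also held for Mog and Opalin, 4 of the 9 genes, against 8.8% of all genes tested. In the DKO library 6 of the 9 genes lay within the range of the other 6 libraries, 2 below it and 1 above it. These sums rest on few molecules, since Mag had 6 to 56 UMIs and Cldn11 13 to 73 UMIs in a library.

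In cells outside the lineage some of the 9 genes were also lower in cKO libraries and others were not. Cldn11 did not overlap between the genotypes, cKO being lower, in 6 of the 7 classes outside the lineage, Cnp and Mag in 3 each, Opalin in 2 and Mal in 1, while Mbp, Mobp, Mog and Ermn overlapped in all 7. The cKO mean of Mbp was above the control mean in neuroblasts (229 against 221 CPM) and microglia (692 against 511 CPM), each through a single library. Mbp in neuroblasts was at 139, 188 and 359 CPM in cKO and 196, 243 and 223 CPM in controls. Mbp in microglia was at 322, 1274 and 479 CPM in cKO and 499, 579 and 454 CPM in controls. Its cKO mean was also above in astrocyte/NSC and endothelial cells, and below in ependymal cells, neurons and mural cells. Over all 63 pairs of gene and class, 15 did not overlap and cKO was lower in all 15. Over all genes with a mean of at least 10 UMIs per library, 6.61% of pairs of gene and class had each cKO library below the controls and 3.66% had each above them. By class, 3 of the 9 genes were lower in this way in neurons (5.84% of all such genes), mural cells (5.28%) and microglia (7.94%). There were 2 of the 9 in astrocyte/NSC (7.4%), ependymal (6.15%) and endothelial cells (6.4%), and 0 in neuroblasts (6.79%). Of 4054 such genes in all 7 classes, 1.65% were lower in at least 3 classes and 1 gene, Cldn11, in at least 6, a description without a test, since the classes come from the same libraries. In neuroblasts Cldn11 was at 63.6, 67.1 and 53.9 CPM in the controls and 34.3, 29.9 and 55.6 CPM in the cKO libraries, and the 2 lowest libraries, cKO 1 and 2, were also the lowest in OPCs. Fewer molecules made by OPCs and less free RNA in the droplets cannot be told apart from these sums.

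The summed level of the 9 genes outside the lineage was not shown to differ. Its mean over the 7 classes was 1399, 1262 and 1220 CPM in the controls, 631, 1060 and 1389 CPM in the cKO libraries and 1255 CPM in the DKO library. The cKO libraries spread from below all controls to near the highest, and the difference of -267 CPM gave p = 0.3 in an exact two-sided permutation test, where 3 against 3 libraries cannot go below 0.1. By class the p ranged from 0.1 in mural cells, where the genotypes did not overlap, to 0.8 in neuroblasts and microglia (exact permutation, unadjusted). After Benjamini-Hochberg adjustment over the 7 classes the lowest was 0.7.

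Further measurements stand beside the OPC result. The OPC class of the cKO libraries held transcripts of Neurod4 and Nhlh1, transcription factors of neuronal differentiation, at 17.7, 55.1 and 44.3 CPM and at 19.5, 37.4 and 50.5 CPM, where the controls had 0 UMIs of Neurod4 and at most 3.32 CPM of Nhlh1 (17.9 and 0 CPM in the DKO library). The summed neuroblast panel was at 142 to 179 CPM in control OPCs, 234 to 382 CPM in cKO OPCs and 135 CPM in DKO OPCs, and Pdgfra, the receptor that marks OPCs, was at 1321, 706 and 1062 CPM in cKO OPCs against 1473, 1433 and 1634 CPM in the controls and 1386 CPM in the DKO library. Their part in the result was not tested. Restricting the class to cells with a Pdgfra UMI, a choice made after these values were seen, left the 9 genes at a median of -0.59, with Cnp at 0.05 ± 0.22 and the other 8 below 0. Mag was at -1.47 ± 0.36 and Cldn11 at -1.18 ± 0.29, with 0 of 9980 genes called (416 at an unadjusted p under 0.05). Prm1, a protamine gene, was at 0 UMIs in all control OPCs and at 65.5, 130 and 144 CPM in cKO and 105 CPM in DKO OPCs. It was not particular to OPCs. In astrocyte/NSC cells Prm1 was at 97.5, 190 and 298 CPM in cKO and 103 CPM in DKO libraries, and at most 0.0790 CPM in controls. In neuroblasts it was at 31.1, 50.5 and 77.4 CPM in cKO and at most 0.0693 CPM in controls. The cKO and DKO libraries carry hGFAP-Cre and the controls do not, and the reason for the pattern was not tested.

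Within libraries processed with Cell Ranger 6.0.1 (2 control and 2 cKO) the median log2 ratio of the 9 genes in OPCs was -1.30, and within those processed with version 6.1.1 (1 and 1) it was -0.28, with all 9 genes lower in both. In committed cells the 2 medians were 0.34 and -0.21, opposite in sign. In mature cells they were -0.23 and -0.10. Without cKO library 2 the OPC median was -0.43, without cKO library 3 it was -1.24, and the other libraries, left out 1 at a time, gave values between these.

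Counts for other genes of the sheath, its lipids and its regulators stand against the shares of all genes tested, which were 30.5% higher and 35.3% lower for committed against OPC and 33.7% higher and 29.3% lower for mature against committed. Of 16 other myelin membrane genes, 14 were called higher and 1 lower in committed than in OPC cells (median 2.19), and 12 higher and 3 lower in mature than in committed cells (median 0.69). Of 11 genes of lipid synthesis, 11 were called higher in committed cells (median 2.90), while 5 were higher and 2 lower in mature cells (median 0.05). Of 12 regulators, 9 were higher and 3 lower in committed cells, and 4 were higher and 4 lower in mature cells. For mature against committed, the counts of the lipid genes and of the regulators called in either direction were close to those shares. Myrf, the transcription factor that drives myelin genes, picked out after its values were seen, was higher in committed than OPC cells by 5.02 ± 0.13 and was not called between mature and committed cells (0.11 ± 0.07, adjusted p = 0.178).

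None of these list genes was called between cKO and control in any of the 3 classes. The estimates in mature cells furthest from 0 were, for the membrane genes, Car2 (carbonic anhydrase 2) at 0.22 ± 0.15 and Gjc3 (a connexin) at 0.20 ± 0.17. For the regulators they were Olig1 at -0.29 ± 0.18 and St18 at 0.21 ± 0.18. These 4 genes had an adjusted p of 1.00 after rounding in edgeR's test.

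Among the genes whose levels most resembled the mean of the 9 over the 70 sums of class and library were Tspan2 (Pearson r = 0.965 of log2(CPM + 1)), Josd2 (0.956), Tmem125 (0.956) and Tmem88b (0.955). These sums share libraries and differ in depth, so the values are descriptions. The 9 genes themselves correlated with their own mean at 0.938 to 0.987, apart from Mal at 0.805. Tspan2, which encodes a tetraspanin, was at 2136 to 2984 CPM in mature cells, 1008 to 1882 CPM in committed cells and 33.4 to 108 CPM in OPCs, and was called higher in mature than in committed cells (1.10 ± 0.11).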

How the data were processed

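The 7 libraries were analysed. The authors aligned reads to GRCm38 with Cell Ranger (6.1.1 per the submitters' notes, 6.0.1 in the headers of 4 files) and deposited filtered raw UMI counts with no normalization, which were used as deposited. Cells with 500 to 7000 genes and at most 10% mitochondrial UMIs were kept (43346 of 65049 barcodes). Cells were classed by panels fixed without the 9 genes; cells of conflicting panels were dropped as mixed (8736), and doublet calls (Scrublet, 949 cells) were used only as an alternative. Scrublet's automatic threshold failed in control library 1 and was replaced there by the median of the other 6 (170 of the calls). Counts were summed per library and class with at least 10 cells and tested in edgeR 4.0.16 (filterByExpr, TMM, robust quasi-likelihood fit, all 7 libraries, contrast cKO minus control, threshold 0.05), with panel genes left out. DESeq2 1.42.0 was an alternative. The script was tested on simulated data. CPM was computed from the sum of the class in a library. Named genes were the 9, Prdm16, Vcam1, 2 genes per list with the largest change in mature cells (mean log2 CPM of at least 4) where none was called, and the 6 most alike; some of these are not reported here. The members and lists were chosen with earlier results of these data known. Cell types were rebuilt here, since no annotation was used. UMI intervals cover counting error only.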

Additional observations from a re-analysis of the deposited data

How the results depend on the processing

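The stage results for Mal, Ermn, Mog, Opalin, Mobp and Cldn11 kept direction and call under every alternative. The median log2 fold change of the 9 genes between mature and committed cells was 1.05, 1.54 with 2 panel genes required and 0.72 with scaling by totals. Between committed and OPC cells it was 4.81, and 4.16 with 2 panel genes required. Mbp was called lower in mature than in committed cells with no filter on low counts (-0.32) and with 4 panel genes required (-0.45).

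For cKO against control, the 9 genes gained 1 call in all settings, Mag in OPCs with no filter on low counts (-1.26, adjusted p = 0.0337), against adjusted p values up to 1.00 elsewhere. Counts over all genes in mature cells were 0, with 4 in DESeq2, 35 with no filter, 25 with the replicate block, 2 with Cell Ranger version as a block, 2 with totals, and 0 to 3 without 1 library. In committed cells they were 0, with 12 with no filter, 11 with the replicate block and 0 to 4 without 1 library. In OPCs they were 3, with 21 in DESeq2, 88 with no filter, 23 with the replicate block, 11 with totals, 5 and 1 with 2 and 4 panel genes, 0 in cells with a Pdgfra UMI, and 1 to 105 without 1 library, 105 being without cKO library 1. The median of the 9 genes in OPCs ran from -1.24 to -0.43 without 1 library. The cause of these moves was not tested. Scaling by totals and the Pdgfra restriction were chosen after seeing the data.

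The block used replicate numbers that name no shared litter or day. Same-numbered libraries correlated in their deviations at -0.06 to 0.37 over the 3 classes, against -0.45 to 0.16 for different numbers. Numbers 1 and 3 were at 0.37 and 0.36 in mature cells and at 0.30 and 0.30 in committed cells. Number 2 was at -0.06 and 0.04 there. In OPCs number 3 was at 0.32 and number 2 at 0.04, while number 1 was at 0.10, as was control library 1 against cKO library 2. Libraries numbered 1 and 3 thus shared some structure across genotypes in mature and committed cells, and only number 3 stood out in OPCs. The control and cKO libraries numbered 3 were those processed with Cell Ranger 6.1.1, so number and version cannot be told apart there. The source of this structure was not tested. The main fit used no block, and the fit with the block is given only as an alternative. For the member level in classes outside the lineage, the difference of -267 CPM kept its sign in every alternative, and it was -69.3 CPM without cKO library 1 and -448.1 CPM without cKO library 3. The median of the 9 genes in committed cells (0.09) ran from -0.11 with 4 panel genes to 0.29 with a mitochondrial limit of 5%. OPC sums, at 35 to 134 cells a library, limit what can be seen for genes near the free RNA level.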
